A study of Mus musculus with 2 samples.

Results

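Cycling CD8 T cells are the cytotoxic lymphocytes of the tumour that carry transcripts of cell division. A barcode (the tag that marks 1 droplet) was counted as a cycling CD8 T cell by its unique molecular identifiers (UMIs, 1 for each captured RNA molecule). It had under 20% of UMIs from mitochondrial genes, at most 1 UMI of Hmga2, at least 2 UMIs of Cd8a and Cd8b1 together, at least 1 UMI of Cd3d, Cd3e and Cd3g together, no UMI of Cd4, and at least 2 UMIs of Mki67, Top2a, Birc5 and Pclaf together. The rule found 199 of 26063 barcodes, 25 of them in the control library and 174 in the antibody library. CD8 barcodes that held at most 1 UMI of the 4 cycle genes, 54 in the control library and 334 in the antibody library, are called non-cycling below. The gate genes chose the cells, so their values are a description and support nothing.

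The tumours were grown from CT26, an established mouse colon carcinoma line. Mice received an antibody against SLC7A11 or a control IgG, both given at 10 mg per kg body weight at intervals of 2 days once tumours had reached 50 to 100 mm3. The study's design text names an injection at the caecum and also subcutaneous growth, and the sources used here give no mouse strain, sex, age or number of animals per library. Each group is 1 library of dissociated whole tumour made with the 10x Genomics 3′ kit, so no difference below has a replicate check and no p-value is given. The intervals printed are 95% intervals that cover counting error only, and cells of 1 library are not replicates of a treatment. The labels name the cells as goblet cells, yet 6 goblet cell genes (Muc2, Tff3, Fcgbp, Clca1, Agr2 and Spink4) summed to 69 UMIs over all control barcodes and 78 UMIs over all antibody barcodes under the mitochondrial limit, and to 0 UMIs and 1 UMI in cycling CD8 T cells.

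A CD8 T cell that recognises its antigen divides several times and arms itself with granzymes and perforin. Before S phase, the MCM helicase is loaded on origins of replication, and DNA is then copied from nucleotides supplied by enzymes such as ribonucleotide reductase. In G2 and mitosis, cyclin B with CDK1, the Polo and Aurora kinases, the kinetochore and the spindle divide the chromosomes. SLC7A11, the target of the antibody, is the light chain of the cystine/glutamate exchanger and pairs with the heavy chain SLC3A2.

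Cycling CD8 T cells were 31.6% (21.6% to 43.1%, Clopper-Pearson) of the CD8 gate in the control library, 25 of 79 barcodes. They were 34.3% (30.1% to 38.6%) of it in the antibody library, 174 of 508 barcodes. The shares overlapped within counting error. With every barcode thinned to 1000 UMIs, the share was 28.9% (19.1% to 40.5%) in the control library (22 of 76). It was lower in the antibody library, 17.6% (14.4% to 21.2%, 88 of 500), with overlapping intervals. Such an overlap does not test a difference. At least 4 UMIs of the 4 cycle genes after thinning were found in 15 of 76 control barcodes (11.5% to 30.5%). In the antibody library they were found in 36 of 500 (5.09% to 9.83%), and these intervals did not overlap. Of all barcodes under the mitochondrial limit, cycling CD8 T cells were 0.180% (0.117% to 0.266%) in the control library and 1.44% (1.24% to 1.67%) in the antibody library. The whole CD8 gate was likewise a larger share in the antibody library, 4.21% against 0.570%. Counting only cells under 3 UMIs of tumour, macrophage, neutrophil and fibroblast genes, cycling CD8 T cells were 0.159% of control and 0.422% of antibody barcodes, and the CD8 gate 0.512% and 2.0%. Among CD8 barcodes with a UMI of Havcr2, the gene of the inhibitory receptor TIM-3, 41.7% were cycling in the antibody library (100 of 240) against 27.6% (74 of 268) of those without. In the control library these shares were 40.0% (6 of 15) and 29.7%. After thinning, the antibody shares were 19.3% and 14.9%, with overlapping intervals.

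The cells were not equally far inside the gate in the 2 libraries. In the control library the 4 cycle genes summed to a median of 13 UMIs per cycling CD8 T cell (2 to 34), with 2 cells at the threshold of 2 UMIs and 17 barcodes just below it at 1. In the antibody library the median was 8 UMIs (2 to 51), with 36 cells at 2 UMIs, 19 at 3 and 90 barcodes at 1 UMI. Other cell types were read by the same rule. At least 2 UMIs of the 4 genes were found in 2 of 111 neutrophil barcodes of the antibody library (1.80%, median depth 781 UMIs) and in 2 of 107 of the control library (1.87%, median depth 668 UMIs). The share in CD8 barcodes of the antibody library, at a median depth of 3201.5 UMIs, lay above that. In barcodes of C1q macrophages, however, at least 2 UMIs were found in 22.4% in the control library (median depth 3715.5 UMIs) and 22.2% in the antibody library (median depth 5938 UMIs). These shares can hold dividing cells as well as free RNA, and the part of each was not tested. At 1000 UMIs per barcode, the 17.6% of CD8 barcodes in the antibody library compared with 7.57% (5.80% to 9.68%) of C1q macrophage barcodes, 6.67% (3.09% to 12.3%) of natural killer cell barcodes and 10.5% (3.96% to 21.5%) of barcodes with Foxp3, the gene of regulatory T cells, of which the last interval overlaps that of CD8 barcodes. In the control library 2 of the 11 neutrophil barcodes deep enough for this had at least 2 UMIs, against 22 of 76 CD8 barcodes.

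**Figure D1:**
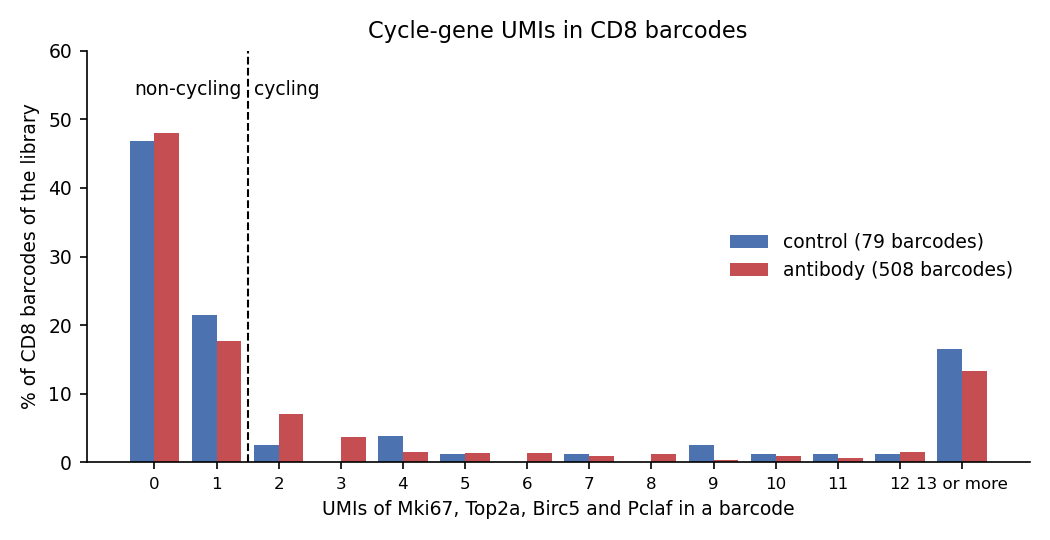
Share of CD8 barcodes of each library (y axis, %) by the summed UMIs of Mki67, Top2a, Birc5 and Pclaf in the barcode (x axis); the dashed line marks the gate between non-cycling and cycling. Control barcodes above the gate lie mostly at 4 UMIs or more, whereas 36 and 19 antibody barcodes sit at 2 and 3 UMIs.

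The label was checked on genes that the gate did not use. The 10 T cell genes outside the gate, among them Trac, Lck and Cd2, had a UMI in 25 of 25 control cells and in 173 of 174 antibody cells. The natural killer genes Klra4 and Klra8 and the gamma delta T cell genes Trdc, Trdv4 and Sox13 were at 0 UMIs in the cycling cells of both libraries, but other genes of these lists were not. The 8 natural killer genes summed to 24 UMIs in 13 of 25 control cells and 146 UMIs in 82 of 174 antibody cells, and the 7 gamma delta T cell genes to 26 UMIs in 11 cells and 111 UMIs in 52 cells. The 6 genes of CD4 and regulatory T cells, with Cd4 at 0 by the gate, summed to 84 UMIs in 22 control cells and 743 UMIs in 157 antibody cells. Ctla4, which is also read as a checkpoint gene below, gave 24 and 457 of these UMIs. Foxp3 was at 0 UMIs in antibody cells but was seen in control cells. Transcripts of other lineages did differ between the libraries. Of the 12 macrophage and monocyte genes, 5 were seen in control cells, with 13 UMIs in all and at most 2 per cell, while Csf1r, Adgre1, Apoe and C1qb were at 0. In antibody cells all 12 were seen, with 1966 UMIs in 154 of 174 cells and 752 of these in 1 cell. Dendritic cell genes, MHC class II among them, summed to 3 UMIs in control cells and 1425 UMIs in antibody cells, fibroblast genes to 16 and 700, and tumour genes to 7 and 165. At least 3 UMIs of tumour, macrophage, neutrophil or fibroblast genes together were present in 3 of 25 control cells (12%) and 123 of 174 antibody cells (70.7%). Their part in the results below was not tested, and some values are also given for the 22 control and 51 antibody cells under 3 such UMIs. Cycling barcodes held more UMIs than non-cycling CD8 barcodes. Their medians were 3666 against 1800.5 UMIs in the control library and 5211.5 against 2627.5 UMIs in the antibody library. The gate asks for a fixed number of cycle-gene UMIs, which deeper barcodes reach more readily. This difference is therefore partly built in by the rule. No cell barcode was shared between the libraries among cycling CD8 T cells (39 in all were).

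Against non-cycling CD8 cells of the same library, cycling CD8 T cells held more transcripts of cell division, from origin licensing to chromosome segregation. Of 1640 genes with at least 20 UMIs over the 2 classes in each library, 67 (4.09%) were at least 2-fold higher in cycling cells in both libraries and 3 (0.183%) were at least 2-fold lower. In the control library alone 151 (9.21%) were higher and 120 (7.32%) lower, and in the antibody library alone 82 (5%) and 9 (0.549%). The cells were chosen by 4 cycle genes, so the values of cycle genes below describe the chosen cells and test nothing. A gene could also reach the minimum of 20 UMIs through a single class, so counts among measured genes carry that filter. The median log2 ratio over all 1640 genes was -0.02 in the control library and 0.01 in the antibody library.

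Licensing genes act first in the cycle. All 5 measured members of that list, Mcm3, Mcm5, Mcm7, Orc6 and Gmnn, were at least 2-fold higher in both libraries, with a median log2 ratio of 1.66 in the control library and 1.54 in the antibody library. Mcm3, a subunit of the replicative helicase, had 21 UMIs in cycling and 11 in non-cycling control cells, and 214 and 65 in antibody cells. Its log2 ratios were 1.05 (-0.04 to 2.28) and 1.70 (1.30 to 2.13), so the control interval reached 0. Gmnn, which encodes geminin, the inhibitor of re-licensing, had log2 ratios of 1.86 and 1.54. Of the 11 measured genes of DNA synthesis and nucleotide supply, 7 were at least 2-fold higher in both libraries, with medians of 1.26 and 1.41. Rrm2, the small subunit of ribonucleotide reductase, had 36 UMIs in cycling and 0 in non-cycling control cells. Against a floor of 3 UMIs this was at least 13.2-fold higher, and the antibody library had 171 against 15 UMIs. Tyms, thymidylate synthase, had log2 ratios of 2.37 (1.18 to 4.02) and 2.71 (2.11 to 3.42). None of the 7 measured G1/S regulators passed 2-fold in both libraries. Ccnd2, the cyclin D2 gene of G1 phase, was lower in cycling cells, with log2 ratios of -2.0 (-2.89 to -1.27) in the control library and -0.61 (-0.82 to -0.39) in the antibody library.

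The mitotic genes stood furthest apart. All 21 measured kinetochore and spindle genes, and 8 of the 9 measured mitotic kinases, cyclins and APC genes, were at least 2-fold higher in both libraries. The kinetochore and spindle list had median log2 ratios of 3.49 and 3.12. The mitotic kinase list had medians of 4.30 and 3.04. With the genes that had no UMI in non-cycling control cells set to their lower bounds, the control medians were 3.14 and 3.20. Plk1, the Polo kinase, had 25 against 0 UMIs in the control library, at least 9.20-fold higher, and 75 against 2 UMIs in the antibody library, a log2 ratio of 4.91 (3.32 to 8.29). Nusap1, a spindle protein, had 56 against 0 UMIs and 187 against 7 UMIs. Ube2c, the E2 enzyme of the anaphase-promoting complex, had 110 against 3 UMIs and 574 against 42 UMIs, log2 ratios of 5.12 (3.75 to 7.64) and 3.75 (3.31 to 4.25). Tubb5, a beta-tubulin, was present in 23 of 25 control and 163 of 174 antibody cycling cells. It stood at 3826 against 357 CPM (UMIs of the gene per 1000000 UMIs of the class) in the control library and 1839 against 494 in the antibody library. Stmn1, the tubulin-binding protein stathmin, differed by nearly the same log2 ratio in both libraries, 3.11 (2.41 to 3.96) and 3.12 (2.75 to 3.53).

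Chromatin genes of dividing cells were next. Of 14 measured mitotic chromatin genes, 10 were at least 2-fold higher in both libraries, with medians of 1.70 and 1.51. H1f5, a linker histone, had 62 against 1 UMIs and 682 against 21 UMIs (643 against 9.39 and 675 against 20.9 CPM). Hmgb2, a chromatin protein of proliferating cells, had log2 ratios of 3.06 (2.52 to 3.70) and 2.30 (2.13 to 2.48). Smc2, a condensin subunit, had 38 against 1 UMIs and 321 against 40 UMIs. H2az1, a histone variant, had log2 ratios of 1.38 and 1.42.

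**Figure D2:**
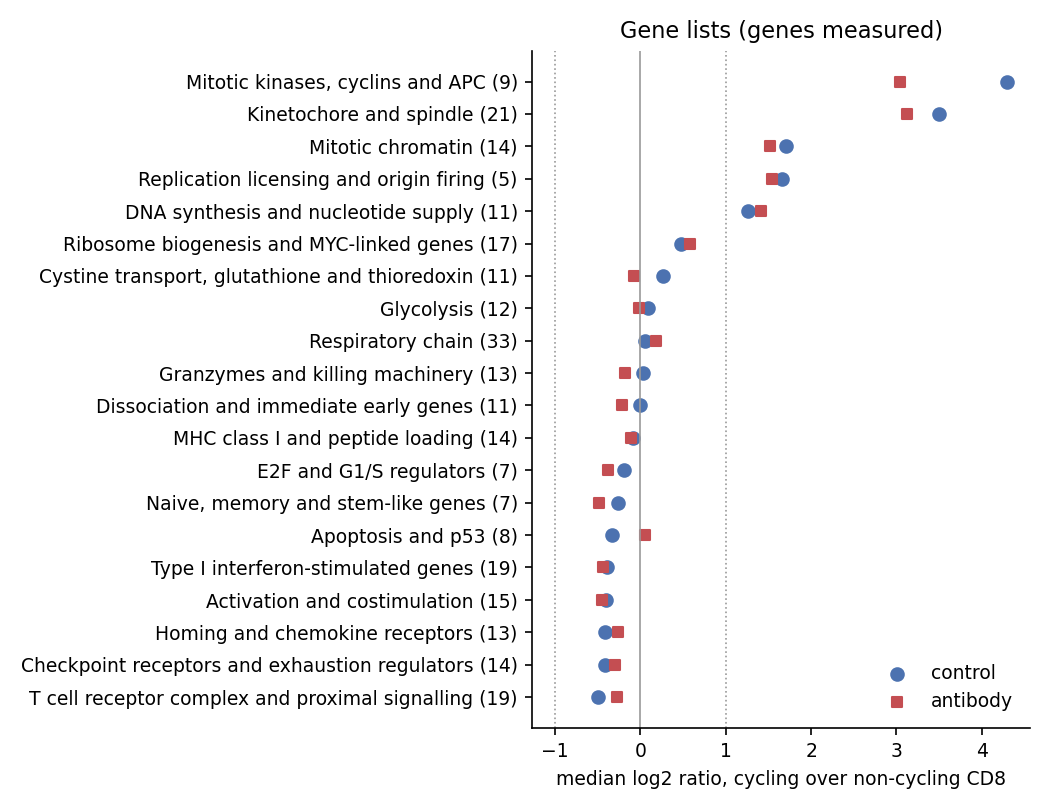
Median log2 ratio of cycling over non-cycling CD8 barcodes (x axis) for each gene list (y axis, number of measured genes in brackets) in the control (circles) and antibody (squares) library; 0.5 UMI was added to each sum and dotted lines mark 2-fold. The 5 lists of DNA replication and mitosis lie beyond 2-fold in both libraries, and all the others lie within it.

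Promoters of the genes that were at least 2-fold higher in both libraries are shown because the mitotic and the S-phase genes among them differed in their sequence motifs. The motifs searched were the cell cycle homology region, CHR (TTTGAA), the CCAAT box (CCAAT) and E2F (TTCCCGC or TTGGCGC). Both strands were searched, from 170 bases before to 30 bases after the start of each gene in the RefSeq promoters of GRCm38.p6 (the build also called mm10). Sequences run 5′ to 3′ on the gene's strand. Capitals mark motif matches on either strand, so a match on the other strand appears as the reverse complement of the motif. Ccnb2 (cyclin B2), Prc1 (a spindle midzone protein) and Hmmr (a spindle protein) are examples of the mitotic genes, and Mcm5 and Mcm3 of the licensing genes. They were named by hand and not by a rule, and all hold the motifs of their group. Both a CHR and a CCAAT box were found in only 13 of 24 promoters of higher mitotic genes. E2F was found in 5 of 11 promoters of higher licensing and DNA synthesis genes.
Ccnb2, chr9:70421525-70421724, minus strand: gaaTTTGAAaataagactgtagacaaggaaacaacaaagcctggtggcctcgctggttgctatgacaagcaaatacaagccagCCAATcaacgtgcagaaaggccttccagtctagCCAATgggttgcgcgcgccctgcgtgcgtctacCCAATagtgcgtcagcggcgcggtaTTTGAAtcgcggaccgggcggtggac
Prc1, chr7:80294281-80294480, plus strand: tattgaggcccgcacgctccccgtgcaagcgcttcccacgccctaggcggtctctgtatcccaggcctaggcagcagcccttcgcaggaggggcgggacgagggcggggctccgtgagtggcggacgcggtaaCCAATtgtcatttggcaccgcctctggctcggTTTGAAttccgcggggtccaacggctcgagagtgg
Hmmr, chr11:40733408-40733607, minus strand: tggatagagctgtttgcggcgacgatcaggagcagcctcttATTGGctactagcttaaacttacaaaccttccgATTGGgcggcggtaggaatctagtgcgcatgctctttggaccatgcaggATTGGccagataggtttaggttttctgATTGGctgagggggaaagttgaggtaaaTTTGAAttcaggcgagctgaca
Mcm5, chr8:75109339-75109538, plus strand: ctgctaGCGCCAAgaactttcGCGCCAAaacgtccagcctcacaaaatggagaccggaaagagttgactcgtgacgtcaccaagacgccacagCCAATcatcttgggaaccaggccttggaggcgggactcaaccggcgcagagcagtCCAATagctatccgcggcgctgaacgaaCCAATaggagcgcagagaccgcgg
Mcm3, chr1:20820283-20820482, minus strand: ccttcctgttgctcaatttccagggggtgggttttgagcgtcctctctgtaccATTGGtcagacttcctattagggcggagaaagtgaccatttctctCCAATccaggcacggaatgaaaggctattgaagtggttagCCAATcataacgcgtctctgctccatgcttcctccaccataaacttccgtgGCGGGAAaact
Of the 29 higher genes in the 2 mitotic lists, 24 had a RefSeq promoter, and 15 of these (62.5%) held a CHR. Of the 11 promoters of higher licensing and DNA synthesis genes, 0 did. The share was 8.78% among the 1333 measured genes with a promoter and 11.9% among all 27025 promoters. A CCAAT box was found in 79.2% of the mitotic and 63.6% of the licensing and synthesis promoters, against 35% of measured genes and 29.7% of all promoters. E2F matches had the opposite distribution to CHR, with 1 of 24 (4.17%) mitotic promoters and 5 of 11 (45.5%) licensing and synthesis promoters, against 9.53% of measured genes and 5.10% of all promoters. Ccnb2 held 2 CHR and 3 CCAAT matches and Hmmr 1 and 4, while Mcm5 held 3 CCAAT and 2 E2F matches. A match is a description of these letters and not a binding site.

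Cycling cells carried the effector transcripts of CD8 T cells. Nkg7, a cytotoxic granule protein, was found in 25 of 25 control and 172 of 174 antibody cells. Prf1, perforin, was found in 19 of 25 (76.0%) and 156 of 174 (89.7%), and Gzmb, granzyme B, in 14 of 25 (56.0%) and 142 of 174 (81.6%). In barcodes with at least 2 UMIs of the tumour transcript Hmga2, which should lack these genes, Gzmb was found in 1.54% (control, median 10114 UMIs) and 11.5% (antibody, median 16377 UMIs). Of 13 measured genes of the killing machinery, 2 (Gzmc and Gzmf) were at least 2-fold higher in cycling than in non-cycling cells in both libraries, and the list medians were 0.03 and -0.18. Gzmf was lower, not higher, in antibody cycling cells under 3 UMIs of other lineages (a log2 ratio of -1.35). Both granzymes rested on few cells: 216 of 309 Gzmf UMIs in control and 206 of 325 in antibody cycling cells came from 1 cell. Gzmb had log2 ratios of 0.74 (0.46 to 1.03) and -0.02 (-0.09 to 0.06), and 138 of its 261 control UMIs came from 1 cell. Without the top cell of each class the control ratio was 0.01. Prf1 had lower levels in cycling cells, with log2 ratios of -1.01 (-1.36 to -0.68) and -0.46 (-0.57 to -0.36). Nkg7 was lower by similar amounts in both libraries, -0.48 (-0.67 to -0.29) and -0.43 (-0.50 to -0.36). Ifng, interferon gamma, went from 0.32 (-0.28 to 0.92) in the control library to -0.62 (-0.79 to -0.45) in the antibody library.

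Checkpoint receptors were also carried by dividing cells. Pdcd1, which encodes PD-1, was found in 21 of 25 (84.0%) control and 157 of 174 (90.2%) antibody cells, against 0.394% and 5.42% of Hmga2 barcodes. Thinned to 1000 UMIs, the shares in cycling cells were 56.0% and 53.8%. Pdcd1 and Gzmb were found together in 13 of 25 and 134 of 174 cells. Its log2 ratios over non-cycling cells were -0.37 (-0.80 to 0.04) and -0.04 (-0.19 to 0.11). None of the 14 measured checkpoint genes passed 2-fold in both libraries, and the medians were -0.42 and -0.29. Ctla4, an inhibitory receptor, was lower in cycling cells in both libraries, -0.84 (-1.63 to -0.12) and -0.94 (-1.11 to -0.77). Icos, a costimulatory receptor, had 7 against 18 UMIs and 230 against 457 UMIs, log2 ratios of -1.16 (-2.72 to 0.11) and -1.0 (-1.24 to -0.77). Tcf7, the transcription factor of stem-like T cells, was found in 1 of 25 and 6 of 174 cycling cells. None of the 7 measured naive and memory genes, the 15 activation genes, the 19 T cell receptor genes or the 19 interferon-stimulated genes passed 2-fold in both libraries. The medians of these 4 lists were between -0.26 and -0.50 in both libraries. The 3 genes at least 2-fold lower in both libraries were Cxcl2, a neutrophil chemokine, Wfdc17 and Napsa. Cxcl2 had 1 against 20 UMIs and 51 against 203 UMIs, and was not lower in the antibody library with doublet calls removed. Macrophage transcripts differ between the classes too: 1 control non-cycling barcode held 328 macrophage UMIs.

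**Figure D3:**
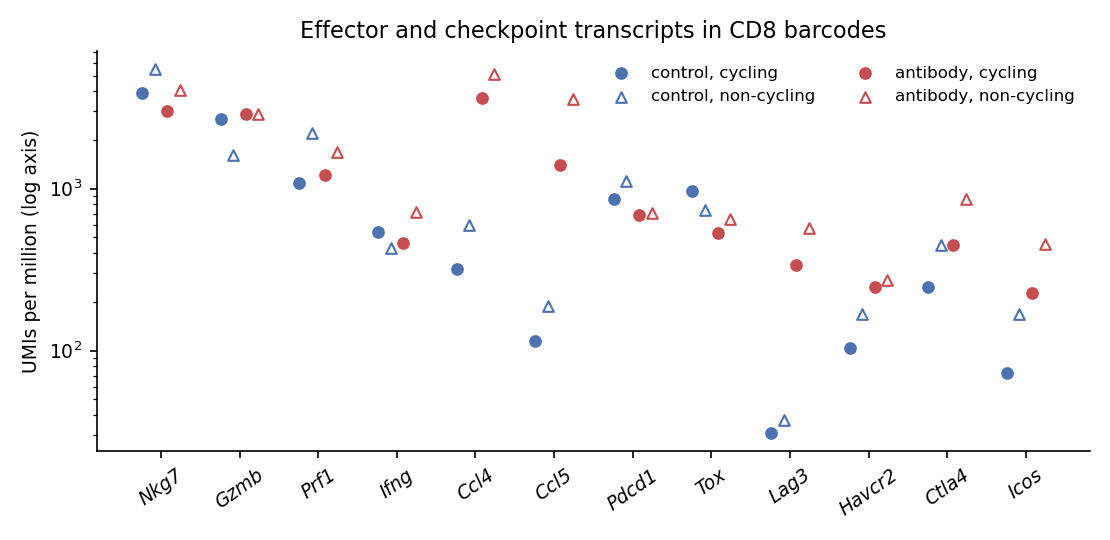
Level of 12 effector and checkpoint genes (CPM, log axis) in summed cycling (filled circles) and non-cycling (open triangles) CD8 barcodes of each library; no error bar is drawn because each point is 1 sum. Prf1, Nkg7 and Ctla4 lie lower in cycling than in non-cycling cells in both libraries, and Ccl4, Ccl5 and Lag3 differ more between libraries than between the 2 classes.

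Growth genes were measured next. The 17 measured ribosome biogenesis genes had medians of 0.47 and 0.58, with 16 and 17 of them above 0. Of the 17, 1 (Impdh2) was at least 2-fold higher in both libraries, a share near the 4.09% over all genes. Impdh2, the rate-limiting enzyme of guanine nucleotide synthesis, had log2 ratios of 2.07 (0.91 to 3.58) and 1.06 (0.68 to 1.46). Npm1, a nucleolar protein, had ratios of 0.34 (-0.04 to 0.72) and 0.32 (0.21 to 0.44). Glycolysis (12 genes) and the respiratory chain (33 genes) had medians between -0.01 and 0.18 and no gene past 2-fold in both libraries.

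The target of the antibody was sparse in these cells. Slc7a11 had 0 UMIs in the 25 control cycling cells, which allows up to 12% of cells with a UMI (a limit of 3 in 25, and no limit on cells that express the gene), and 11 UMIs in 10 of 174 antibody cycling cells (5.75%). In Hmga2 barcodes it was found in 16.8% (control) and 28.0% (antibody), at the greater depths given above. Slc3a2, the heavy chain, had 5 UMIs in 5 of 25 control cells and 353 UMIs in 134 of 174 antibody cells. Slc3a2 did not differ between cycling and non-cycling cells beyond counting error, with log2 ratios of -0.65 (-2.63 to 1.03) and -0.09 (-0.30 to 0.12). Of the 11 measured genes of cystine transport, glutathione and thioredoxin, 0 passed 2-fold in both libraries. Txn1, thioredoxin, was higher in cycling cells by log2 ratios of 0.57 (0.22 to 0.92) and 0.46 (0.35 to 0.57).

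The phase of each cell was read from genes outside the gate. Each cell was called S-led when its UMIs of 42 S-phase genes outnumbered those of 49 G2/M genes, both lists without the 4 gate genes. Of control cells, 5 of 25 (20%, 6.83% to 40.7%) were S-led, and of antibody cells 69 of 174 (39.7%, 32.3% to 47.3%). The intervals overlap. At 1000 UMIs per cell the shares were 20% and 35.3%, and among cells with a cycle-gene sum of at least 4 they were 17.4% (4 of 23) and 34.5% (41 of 119). Under 3 UMIs of other lineages they were 22.7% and 51.0%, and with that limit, a cycle-gene sum of at least 4 and thinning they were 20% (4 of 20) and 31.6% (12 of 38). A difference in phase between the libraries was therefore not resolved at this number of cells. The same call also labelled most non-cycling barcodes. Of these, 50% were S-led and 35.2% G2/M-led in the control library, and 29.6% and 57.8% in the antibody library. Their medians were only 2.5 to 4 UMIs of either list, so the call alone does not mark a dividing cell. G2/M genes summed to 13768 CPM in control cells and 8619 in antibody cells, against 1549 and 1842 in non-cycling cells. S genes summed to 5546 and 4586, against 2037 and 1660. Per cell, G2/M genes had a median of 157 UMIs per 10000 (5.87 to 291) in control and 68.6 (8.62 to 328) in antibody cells, with wide overlap. Among cells with a cycle-gene sum of at least 4 the medians were 161 and 92.9. The 55 antibody cells at 2 or 3 UMIs (31.6% of them) had a median of 25.1, close to the 17.9 of non-cycling cells. Free RNA also enters such calls, and its part in these shares was not tested.

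**Figure D4:**
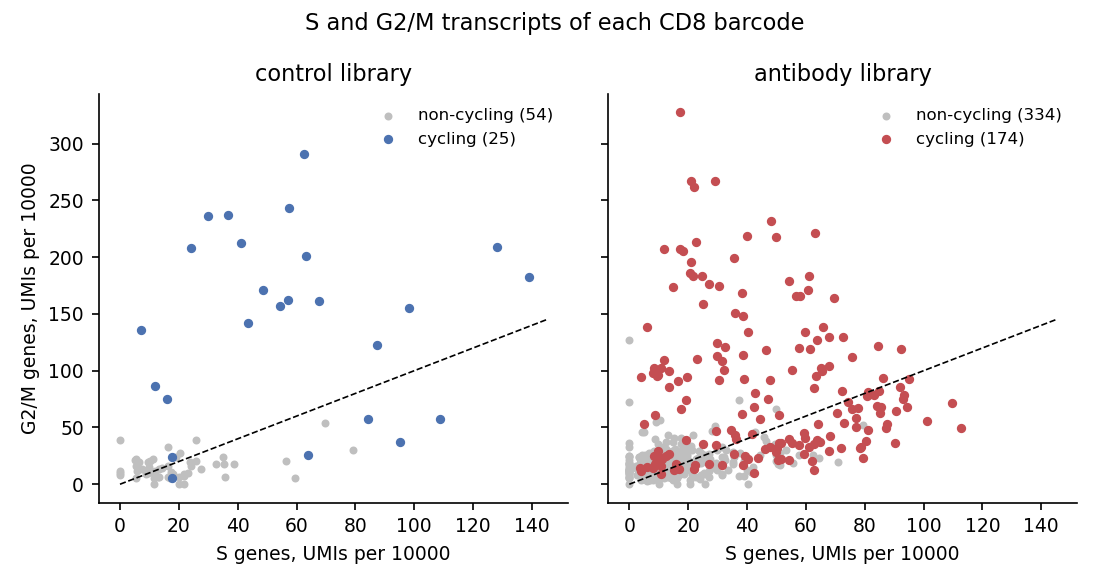
Each point is 1 CD8 barcode, with UMIs of S genes (x axis) and of G2/M genes (y axis) per 10000 UMIs of the barcode; the dashed line marks equal values, and grey points are non-cycling. In the control library 20 of 25 cycling barcodes lie above the line, and in the antibody library 104 of 174 do. The 55 antibody barcodes of low cycle-gene sum are not marked apart. Their G2/M values have a median of 25.1 and reach 183, against at most 127 in non-cycling antibody barcodes.

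Ube2c and Pcna are in the phase lists, so their values by phase are a description, whereas Mcm3 is in neither list. Ube2c had 0 UMIs in the 5 S-led and 1428 CPM in the 20 G2/M-led control cells, and 67.6 and 863 in the 69 and 104 antibody cells. Mcm3 stood at 618 (319 to 1080) against 117 (53.4 to 222) CPM in control cells and 306 (252 to 368) against 158 (128 to 192) in antibody cells. Pcna, the sliding clamp of DNA polymerase, stood at 528 (456 to 607) against 280 (241 to 325) in antibody cells. Gzmb stood at 3406 CPM in S-led and 2582 CPM in G2/M-led antibody cells, and among cells with a cycle-gene sum of at least 4 at 2132 CPM and 2789 CPM, so its order by phase depended on the cells with low sums. Pdcd1 was found in 91.3% of S-led and 89.4% of G2/M-led antibody cells.

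Between the libraries, antibody cycling cells had more chemokine, Lag3 and histone UMIs and fewer mitotic and Gzmc to Gzmf UMIs, relative to all UMIs, than control cycling cells. The Gzmc to Gzmf difference rests on 3 or 4 of 25 control cells for each gene. Of 3369 genes with at least 50 UMIs over both, 491 (14.6%) were at least 2-fold higher and 184 (5.46%) at least 2-fold lower in antibody cells, around a median log2 ratio of -0.05. For 65 of the 491 genes the control cells had 0 UMIs, and 24 of these have a lower bound under 2-fold. Of the 433 higher genes that were also measured in non-cycling CD8 cells, 220 were at least 2-fold higher there as well (7.42% of the 2964 genes measured in both classes), and 239 were at least 2-fold higher outside the CD8 gate. Of 129 lower genes, 33 were also lower in non-cycling cells (1.11% of the 2964) and 2 outside the gate. The 7.42% and 1.11% count genes past 2-fold in both classes. The shares of all measured genes past 2-fold in non-cycling cells, or outside the gate, are not given here. These overlaps therefore have no background beside them and are a description only. Among the 22 and 51 cells under 3 UMIs of other lineages, 109 of 1041 measured genes were at least 2-fold higher and 48 lower. The Lag3 and histone values given below were as large or larger outside the CD8 gate. Treatment, animal, library preparation and counting cannot be told apart in this design.

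Mitotic transcripts made up a smaller share in antibody cells. The gate asks for a fixed number of cycle-gene UMIs, and antibody cells were deeper (medians of 5211.5 against 3666 UMIs). They could therefore pass it at a lower share of such UMIs. The 4 gate genes themselves stood at 1931 CPM in antibody and 3255 CPM in control cells. The part of the gate and of depth in the values below was not tested. Of 35 measured kinetochore and spindle genes, 0 were at least 2-fold higher and 16 at least 2-fold lower, with a median log2 ratio of -0.91. The same list had a median of 0.15 in non-cycling CD8 cells and -0.40 outside the CD8 gate. With cycle-gene sums of at least 4, again a fixed number, the median was -0.64. Under 3 UMIs of other lineages it was -0.87, and with both limits it was -0.72. Tubb5 had a log2 ratio of -1.06 (-1.22 to -0.89) in cycling cells and 0.45 in non-cycling cells. Kif15, a spindle motor, had 49 UMIs in 20 of 25 control cells and 135 UMIs in 78 of 174 antibody cells, a ratio of -1.94 (-2.41 to -1.42). Nusap1 had a ratio of -1.66 (-2.09 to -1.19) and Cdk1, the mitotic kinase, -1.09 (-1.54 to -0.59). Of 18 mitotic kinase, cyclin and APC genes, 6 were at least 2-fold lower and 1 higher. The higher gene was Cdc20, an activator of the anaphase-promoting complex, which was higher outside the gate too (1.74 in cycling, 2.60 in non-cycling CD8 cells and 2.27 outside the gate).

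The licensing and DNA synthesis lists lay closer to 0, but the 7 measured G1/S regulators had a median of -0.75, with 0 higher and 2 lower. The 13 licensing genes had a median of -0.07, with 2 at least 2-fold higher (Mcm6 and Gins4) and 0 lower. Over all genes of this comparison 14.6% were higher and 5.46% lower. The 24 DNA synthesis genes had -0.40, with Dut and Rfc5 higher and Rrm2 and Rfc3 lower. Mcm3 had a ratio of -0.07 (-0.69 to 0.68) and Pcna 0.39 (-0.15 to 1.03). Dut, the dUTPase, was at 7 UMIs in control and 828 UMIs in antibody cells, but it was also higher outside the gate, by a log2 ratio of 3.19. Of 10 measured replication-dependent histone genes, 7 were at least 2-fold higher in antibody cells and 0 lower, with a median of 2.53, or 1.54 with the 2 genes at 0 in control cells set to their bounds. The median of these genes outside the CD8 gate was 4.06. Histone transcripts of this kind mostly lack a poly(A) tail, on which 3′ kits rely.

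Chemokine transcripts were far more frequent in antibody cells. Of 7 measured cytokine and chemokine genes, 4 (Ccl3, Ccl4, Ccl5 and Ltb) were at least 2-fold higher and 0 lower, with a median of 3.48 in cycling and 4.15 in non-cycling cells. Ccl3, a chemokine gene, had 0 UMIs in the 25 control cells and 1232 UMIs in 109 of 174 antibody cells (62.6%). This is at least 39.2-fold higher against the floor of 3 UMIs, and the ratio in barcodes outside the CD8 gate was 0.12. Ccl4, also a chemokine gene, had 31 UMIs in 6 control cells and 3693 UMIs in 146 antibody cells, a log2 ratio of 3.48 (3.0 to 4.07), against 0.79 outside the gate. Ccl5 had 11 and 1409 UMIs, a ratio of 3.55 (2.77 to 4.62), against 1.73 outside the gate. Within the antibody library, Ccl5 was lower in cycling than in non-cycling cells, by -1.37 (-1.46 to -1.28). In Hmga2 barcodes of the antibody library Ccl4 was found in 24.5% and Ccl3 in 11%. Ifng had a ratio of -0.23 (-0.63 to 0.23).

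Of 17 measured checkpoint genes, 5 (Lag3, Havcr2, Nr4a1, Rgs16 and Batf) were at least 2-fold higher and 0 lower. The list had a median of 0.44 in cycling cells, 0.31 in non-cycling cells and 1.42 outside the CD8 gate. Lag3, an inhibitory receptor for MHC class II, had 3 UMIs in 3 of 25 control cells and 341 UMIs in 142 of 174 antibody cells. Its ratio was 3.22 (1.88 to 5.72), with 3.76 in non-cycling CD8 cells and 3.53 outside the gate. Havcr2 had 10 UMIs in 6 cells and 251 UMIs in 100 cells, a ratio of 1.19 (0.36 to 2.34). Pdcd1 was not distinguishable between the libraries, -0.33 (-0.66 to 0.02). Tox, a transcription factor of exhausted T cells, was lower in antibody cells, -0.87 (-1.18 to -0.53), with -0.20 in non-cycling cells. Tox was found in 92.0% of control and 84.5% of antibody cycling cells. At 1000 UMIs per cell, in 1 random draw of UMIs, these shares were 84.0% (63.9% to 95.5%) and 31.2% (24.4% to 38.7%). The intervals leave out the error of that draw. Bcl2, which opposes apoptosis, was lower in cycling and non-cycling cells, -1.82 (-2.29 to -1.32) and -1.69. Slc3a2 had a ratio of 2.62 (1.52 to 4.38), with 2.06 in non-cycling CD8 cells and 1.83 outside the gate. A widely expressed gene had the same pattern in the 3 classes compared. Junb, an AP-1 subunit, had 2 and 1480 UMIs and ratios of 5.82 in cycling cells, 4.82 in non-cycling cells and 5.26 outside the gate.

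Granzymes were split. Prf1 (0.16, -0.12 to 0.47) did not differ beyond counting error between antibody and control cycling cells. Gzmb had a ratio of 0.08 (-0.10 to 0.28), which rested on the control cell with 138 of 261 UMIs, and without the top cell of each library the ratio was 0.94. Gzmb was found in 56% of control and 81.6% of antibody cells (36% and 61.8% at 1000 UMIs), with a median of 2.72 and 16.3 UMIs per 10000. Of 15 measured genes of the killing machinery, 4 were at least 2-fold lower (Gzmc, Gzmd, Gzme and Gzmf) and 1 higher (Stx11, a granule fusion protein). Gzmd had 93 UMIs in 3 of 25 control cells, 46 of them in 1 cell, and 56 UMIs in 11 of 174 antibody cells, a ratio of -4.12 (-4.63 to -3.63) against 0.73 in non-cycling cells. Gzmf had a ratio of -3.32 (-3.55 to -3.09), with 216 of 309 control UMIs in 1 cell, so these values rest on a few control cells. Genes of other lineages were also among the 10 highest. H2-Aa, an MHC class II chain, had 0 and 533 UMIs, with at most 139 in 1 cell, Ccl8, a monocyte chemokine, had 0 and 641 UMIs, with 352 in 1 cell, and Apoe and C1qb had 0 UMIs in control cells and 201 and 207 in antibody cells. The 1966 macrophage and 1425 dendritic UMIs given above lie in the same cells, and their part in these values was not tested.

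**Figure D5:**
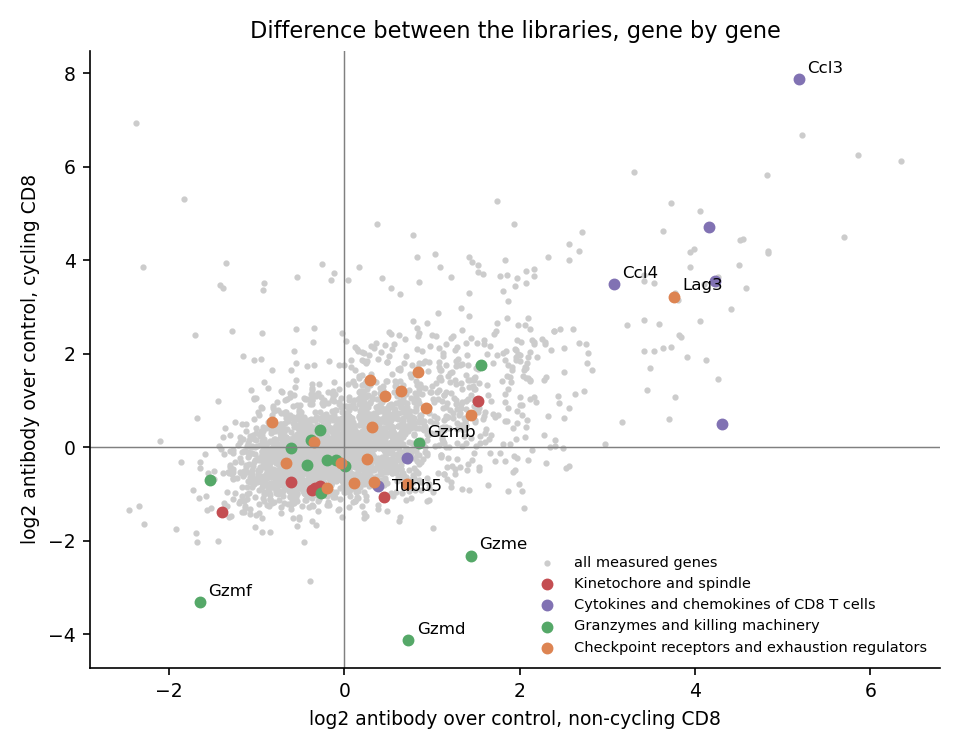
Log2 ratio of antibody over control in cycling (y axis) against non-cycling (x axis) CD8 barcodes for the 2964 genes with at least 50 UMIs in each class, 1 point per gene; coloured points belong to 4 gene lists, and values of genes at 0 UMIs in control, such as Ccl3, depend on the 0.5 added to each sum. Ccl3, Ccl4 and Lag3 are high on both axes, whereas Tubb5, Gzmd and Gzme are below 0 in cycling cells and above 0 in non-cycling cells.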

How the data were processed

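The deposited tables hold unique molecular identifier (UMI) counts per gene and barcode, 1 table for each of the 2 libraries. The authors made these counts with Cell Ranger 7.2.0 against build mm10, with Seurat as a further tool, per the submitters' processing notes. No filter on barcodes is stated there. The libraries held 129044329 UMIs in 13910 control barcodes (median 7559.5) and 143658800 UMIs in 12153 antibody barcodes (median 7798).

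Members were found on raw UMIs as described, and a gene's UMIs were summed over the cells of a class and a library. Ratios are log2((a + 0.5) / (A + 1)) minus the same for the other class, with a the UMIs of the gene and A those of the class. Intervals are exact at 95%: conditional binomial for ratios, Clopper-Pearson for shares and Poisson for CPM. Genes needed 20 UMIs over cycling and non-cycling cells in each library, or 50 UMIs over the antibody and control cells. A gene counted as higher or lower past 2-fold. A class at 0 UMIs was set to a floor of 3 UMIs, summed over the class, for lower bounds. Cells were thinned to 1000 UMIs where shares are compared across depths, leaving out shallower ones. Doublets were not removed for the main values. Scrublet in scanpy 1.11.5, at 0.8% per 1000 barcodes, was an alternative. Sums and ratios were computed with pandas 2.3.3 and numpy 2.4.6 in Python 3.11.15, intervals with scipy 1.17.1 and figures with matplotlib 3.10.9. The ratio code was tested on simulated data.

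The named genes are, for cycling against non-cycling cells, the 12 highest and 12 lowest by the library nearer to 0; for antibody against control cells, the 10 highest and 10 lowest, and the 8 highest and 8 lowest after subtracting the ratio in non-cycling cells; the 3 members of each list with the most UMIs and those past 2-fold in both libraries; and a few receptors and effectors. A selection of these is printed, and other names were added after their values were seen. The members, the gene lists and the rules were chosen with earlier results of these data known. Alternatives were other thresholds of the gate, the depth, the scaling, the minimum of UMIs, doublet removal and cells under 3 UMIs of other lineages.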

Additional observations from a re-analysis of the deposited data

Results flagged for a closer look

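Ccl7, a monocyte chemokine, was higher in non-cycling cells in the control library and in cycling cells in the antibody library. Its log2 ratio of cycling over non-cycling cells was -3.76 in the control library (1 against 22 UMIs) and 1.12 in the antibody library (174 against 79 UMIs), where 105 of the 174 UMIs came from 1 cell. Serpinb9b, a serine protease inhibitor gene, went the other way, with log2 ratios of 1.24 (22 against 10 UMIs) and -1.23 (32 against 75 UMIs). Each gene moved in opposite directions in the 2 libraries, and with 1 library per group the difference was not tested. Over all measured genes 3 were past 2-fold in opposite directions.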

How the results depend on the processing

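No paired analysis was possible because each group is 1 library. With a cycle-gene sum of at least 1 the cycling share of the CD8 gate was 53.2% in control and 52.0% in antibody barcodes, and the share of all barcodes 0.303% and 2.19%. In the antibody library, a sum of at least 4 gave 23.4% and 0.986%, under 3 UMIs of other lineages 21.2% and 0.422%, and thinning to 1000 UMIs 17.6% and 0.810%, while the CD8 gate was 2.00% and 4.60% of barcodes under the latter 2. The S-led share of antibody cells was 51.0% under 3 such UMIs. Genes higher in cycling cells in both libraries numbered 140 with 0.5 times the minimum of UMIs, 9 with 4 times it and 16 thinned. Genes lower numbered 6 as a mean over barcodes, 0 with 4 times the minimum, 5 under 3 other UMIs, 6 with a sum of at least 4, 0 thinned, 1 with the top barcode of each gene left out, and 8 with both a sum of at least 4 and under 3 other UMIs. Genes higher in antibody cycling cells numbered 884 and 108 with 0.5 and 4 times the minimum, 109 under 3 other UMIs, 83 thinned and 99 with both limits. Genes lower there numbered 494, 26, 48, 43 and 44 in that order, 120 with a sum of at least 4, and 83 without the top barcode. These settings also measured fewer or more genes. The mitotic kinase median, cycling over non-cycling, was 3.36 in control and 2.32 in antibody cells under 3 other UMIs, and 3.43 in control cells with both limits. The kinetochore median in antibody cells was 2.10 thinned and 2.24 without the top barcode. The direction turned for Cxcl2 in antibody cells (0.20 with doublets removed), for Gzmf in antibody cells (-1.35 under 3 other UMIs and -3.68 with both limits) and for Cenpf, antibody over control (0.11 with both limits). The cause was not tested. The settings without the top barcode and with both limits were chosen after seeing the data. With 25 control cells, depth limits every comparison with them.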

Other observations

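T cell receptor V segments were read in few cells. A Trbv segment was found in 51 of 174 antibody cycling cells (29.3%) and in 3 of 25 control cells. Among antibody cells with exactly 1 segment, Trbv13-1 was found in 23 of 50 cycling cells (46%, 31.8% to 60.7%) and in 21 of 54 non-cycling cells (38.9%, 25.9% to 53.1%), so the shares overlapped.

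Interferon-stimulated genes of antibody cycling cells stood at a median log2 ratio of -0.33 over control, with 6 of 21 measured genes at least 2-fold lower and 1, Stat2, higher. The median of the same genes was -0.28 in non-cycling cells and 0.82, the other direction, outside the CD8 gate. Isg20, an antiviral exonuclease, had a ratio of -2.01. Respiratory chain genes had a median of 0.26, with 9 of 41 at least 2-fold higher and 1 lower, and glycolysis genes -0.54, with 1 of 17 higher and 2 lower (Slc2a1 and Eno1). Over all 3369 genes of this comparison 14.6% were at least 2-fold higher and 5.46% lower.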
